A study of Mus musculus with 10 samples.

Results

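Collagens are the triple-helical proteins of the extracellular matrix, and each gene encodes 1 alpha chain. In the brain they are made by cells of the meninges and vessel walls and laid down in the basement membranes around capillaries, while several non-fibrillar members are also made by neurons and glia. Fibrillar collagens form the banded fibres of connective tissue and bone, type IV chains assemble into the sheet that underlies endothelium, and the remaining families decorate fibrils, form filaments or span the membrane. The members were all rows whose Ensembl identifier maps to a protein-coding gene with a Col name of the form ColNaN. They numbered 44 of the 18444 genes in the table, of which 11 encode fibrillar chains, 8 basement membrane chains and 25 other chains, on 15 chromosomes.

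The data are bulk RNA-seq of whole brain from male C57BL/6N mice at postnatal day 3, with 5 mice heterozygous for the Arid1b em1Tcp allele (HT 1 to HT 5) and 5 wild-type mice (WT 1 to WT 5). The allele came from Cas9 nickase editing that removed an exon of Arid1b, a subunit of the BAF chromatin remodelling complex, and added a short insertion, which truncates the protein, and it is constitutive, not limited to a cell type. The 10 mice came from crosses of HT sires with WT dams. The comparison asks which transcripts differ with 1 lost copy of Arid1b, and here it is read across the collagen genes. In whole tissue, fewer cells of a type and less RNA per cell cannot be told apart.

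Arid1b itself stood at 2372, 2230.2, 2253, 1505 and 2142 normalised counts in HT 1 to HT 5 and at 3386, 3155, 3597, 3429 and 3108 in WT 1 to WT 5. The genotype groups did not overlap, with a log2 difference of −0.68 ± 0.11 (SE, limma, n = 5 per group) and an exact permutation p of 0.00794, the smallest that 5 against 5 allows. Its adjusted limma p was 0.39 with all libraries and 0.000252 without HT 4. Library totals ran from 27243500 to 29032400 normalised counts. HT 4 stood apart from the other libraries, since its deviations from the gene means fell with transcript length (Spearman −0.50 across genes, against −0.18 to 0.34 in the other 9). WT 3 stood apart in its type I collagen and bone transcripts, as described below. Results on named genes that gained or lost a call without either library are therefore given with and without it. Neuronal marker sums lay between 176831 and 198172 in all libraries, and sums of astrocyte and radial glia markers lay between 41715 and 51911, so the labelled tissue matched its markers.

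Of the 44 genes, 43 passed the filter of a mean of at least 10 normalised counts. Col10a1, the short-chain collagen of hypertrophic cartilage, averaged 5.54 and was not tested. Compared per kilobase of the longest coding transcript, the highest levels belonged to Col4a1 (891 ± 72.6, SD, n = 10), Col1a2 (798 ± 543), Col4a2 (771 ± 30.8), Col1a1 (713 ± 780.3) and Col3a1 (478 ± 115). The spreads of Col1a1 and Col1a2 overlapped each other and those of both type IV chains, so their places in this order are not resolved, whereas Col4a1 exceeded Col4a2 in all 10 libraries. The next levels per kilobase were those of Col9a3 (381 ± 38.5), which decorates cartilage fibrils, Col26a1 (354 ± 47.4) and Col6a1 (283 ± 29.2), a chain of the beaded filaments around cells. The order rests on the transcript length used, since with the median length of coding transcripts 7 of the 10 highest genes stayed among them.

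**Figure D1:**
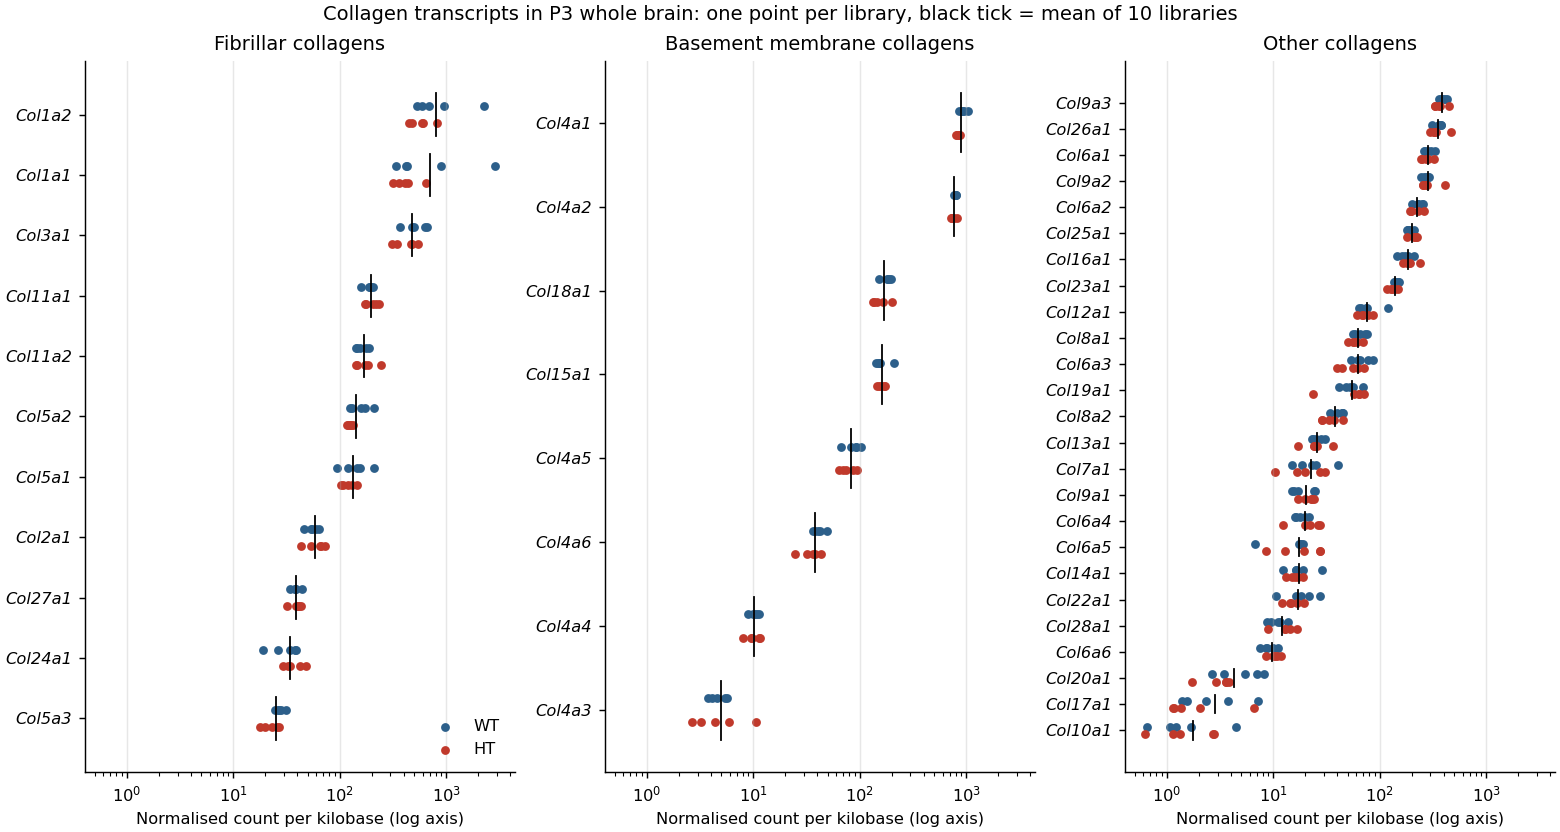
Normalised count per kilobase (log axis) of all 44 collagen genes, grouped by class, with 1 point for each WT library (blue) and HT library (red) and a tick at the mean of 10 libraries. Col4a1, Col1a2, Col4a2, Col1a1 and Col3a1 lead, and 1 WT point of Col1a1 and of Col1a2 lies far to the right.

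Library to library, collagens varied more than most genes: the median SD of log2 values was 0.258 over the tested collagens and 0.158 over all tested genes. The most and least steady members were both among the highest. Col1a1 had a coefficient of variation of 109% and Col1a2 one of 67.98%, whereas Col4a2, the partner chain of the most abundant basement membrane collagen, varied by 3.99%.

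The type IV genes lie head to head in pairs, each pair sharing 1 stretch of DNA between its start sites (GRCm38). Col4a1 and Col4a2 face away from each other on chromosome 8 and their annotated transcripts share the first 22 bases (chr8:11312805-11312826). Col4a3 and Col4a4 lie 71 bases apart on chromosome 1, and Col4a5 and Col4a6 lie 1308 bases apart on the X chromosome. The library kit marks strand, but whether the quantification used it is not given in the sources used here, so reads over the shared bases cannot be assigned to 1 chain with certainty. The bases shared by the first pair and the stretch between the second are shown because they lie where the genes compared below start, and the sequence from Col4a4 towards Col4a3 is chr1:82586850-82586920 on the minus strand. Capitals mark a GC box, GGGCGG.

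Col4a1 and Col4a2 shared bases: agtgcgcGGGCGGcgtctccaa

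Col4a4 to Col4a3: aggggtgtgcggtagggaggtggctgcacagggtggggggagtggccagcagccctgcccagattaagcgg

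RefSeq promoter windows on GRCm38.p6 were matched for 35 of the 44 genes, and 250 bases before each start were searched on both strands for 4 short motifs. The entries missing were those of Col12a1, Col14a1, Col1a1, Col22a1, Col26a1, Col2a1, Col4a3, Col5a2 and Col9a3. GGGCGG, the GC box, was present in 57.9% of 38 collagen windows and in 32.7% of all 32851 windows. CCCTCCC was present in 47.4% against 19.7%, CCAAT in 34.2% against 33.8%, and TATAAA in 13.2% against 12.4%. The GC box and CCCTCCC can overlap where a run of G or C continues, and matches are descriptions of letters, not binding sites. The upstream sequences of 4 fibrillar genes follow because the counts of Col1a2 and Col5a1 peak in the single library WT 3 and those of Col3a1 and Col11a1 do not. Whether these letters bear on the counts was not tested. Capitals mark any of the 4 motifs on either strand, and the Col1a2 sequence stops where an annotated exon begins, ahead of the RefSeq start. It covers only bases 248 to 126 before that start. These bases lie inside the Col1a2 gene as GENCODE annotates it, after its start at chr6:4504814. The searched Col1a2 window also held CCAAT, which is not within the bases printed.

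Col1a2 (chr6:4505370-4505492, plus strand): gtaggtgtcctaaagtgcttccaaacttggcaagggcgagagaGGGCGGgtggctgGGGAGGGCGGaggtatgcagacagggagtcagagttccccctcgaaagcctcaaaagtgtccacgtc

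Col3a1 (chr1:45311288-45311537, plus strand): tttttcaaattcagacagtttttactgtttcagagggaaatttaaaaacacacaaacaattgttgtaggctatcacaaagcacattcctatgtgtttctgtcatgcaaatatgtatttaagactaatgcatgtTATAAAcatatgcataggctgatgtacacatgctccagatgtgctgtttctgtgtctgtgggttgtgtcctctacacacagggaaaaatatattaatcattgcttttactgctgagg

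Col5a1 (chr2:27886175-27886424, plus strand): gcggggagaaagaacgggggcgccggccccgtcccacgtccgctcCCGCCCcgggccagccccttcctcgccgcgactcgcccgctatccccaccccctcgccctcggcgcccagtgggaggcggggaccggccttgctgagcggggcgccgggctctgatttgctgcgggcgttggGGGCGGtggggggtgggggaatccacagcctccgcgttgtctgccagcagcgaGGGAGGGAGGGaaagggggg

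Col11a1 (chr3:114030290-114030539, plus strand): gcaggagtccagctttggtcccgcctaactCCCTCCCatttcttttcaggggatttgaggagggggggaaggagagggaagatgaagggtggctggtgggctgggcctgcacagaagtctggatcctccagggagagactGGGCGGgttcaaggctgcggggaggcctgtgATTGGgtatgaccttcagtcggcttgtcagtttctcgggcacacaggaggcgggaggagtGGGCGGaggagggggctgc

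Across all 10 libraries no collagen passed an adjusted p of 0.05 in the limma fit, where 0 of 17020 genes did (0% of all genes). At an unadjusted p under 0.05, 3 collagens were lower in HT and 0 were higher, against 1.93% of all genes lower and 1.47% higher. Of the 43 tested, 29 had a lower fitted level in HT (67.4%), against 53.6% of all genes. The median log2 difference was −0.11 over the collagens and −0.0074 over all genes. No collagen separated the groups without overlap, which 0.629% of all genes did, and 2 collagens had an exact permutation p under 0.05, as did 3.9% of all genes.

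Of the libraries left out singly, HT 4 moved the count of lower collagens most. Without it 11 collagens were lower and 1 was higher at an unadjusted p under 0.05, against 3.71% of all genes lower and 4.69% higher, and the median over collagens was −0.16. No collagen separated the groups without overlap then (2.96% of all genes), 10 had an exact permutation p under 0.05 (7.88%), and 0 had an adjusted p under 0.05 (0.0118%), with a smallest value of 0.446 in limma. Without WT 3 the median was −0.065, with 2 collagens lower and 0 higher, against 1.46% and 1.16% of all genes. Without both libraries 9 were lower and 2 higher, against 3.59% and 5.41%, with 2 that did not overlap (5.16% of all genes) and 0 with an adjusted p under 0.05 (0.0118%). Without WT 5, 10 collagens were lower and 1 higher, against 2.54% and 1.59%. The count of higher collagens reached 2 without HT 2, and 1 collagen separated the groups without WT 4. The shares over all genes were not computed for these fits, so neither count can be set against a background.

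**Figure D2:**
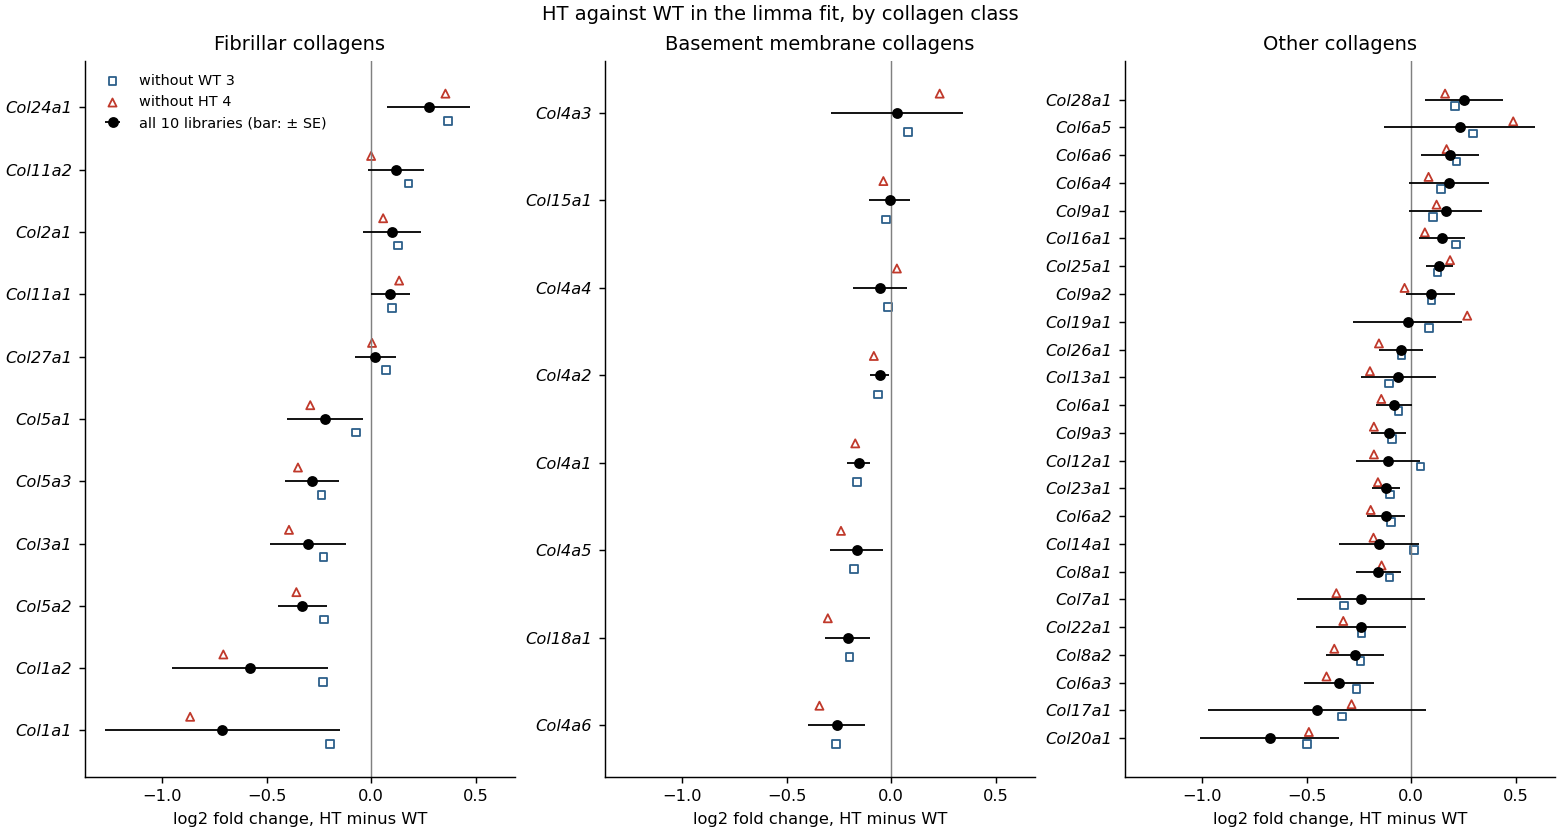
Log2 fold change of HT minus WT for the 43 tested collagens by class, with all 10 libraries (black, ± SE), without WT 3 (blue squares) and without HT 4 (red triangles). Most points lie left of 0, most members of the basement membrane class with them, and Col1a1 and Col1a2 move far toward 0 without WT 3.

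Among the fibrillar collagens 6 of 11 were lower and 5 higher, with a median log2 difference of −0.22. The 6 lower members were type I, III and V chains, which build the fibres of meninges, vessel walls and bone. The higher ones were Col2a1, Col11a1 and Col11a2 of the cartilage type fibres, Col24a1 and Col27a1, with log2 differences of 0.02 to 0.27, none of which had an unadjusted p under 0.05.

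Col1a1 encodes the chain present in 2 copies per type I molecule. Its normalised counts were 2439, 2593, 2134, 3829 and 1880.5 in HT 1 to HT 5 and 2548, 5249, 17074, 2506 and 2012 in WT 1 to WT 5. WT 3 lay far above every other library, WT 2 and HT 4 came next, and the other 7 libraries of both genotypes overlapped. The log2 difference was −0.71 ± 0.56 (SE, limma p = 0.238, exact permutation p = 0.27), and without WT 3 it was −0.20.

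For Col1a2, the second type I chain, the values were 3259.9, 3164, 2553, 4368 and 2371 in HT and 3141, 5159, 12174, 3658 and 2836 in WT, in the same library order. WT 3 was again the highest and WT 2 and HT 4 again followed. Its log2 difference of −0.58 ± 0.37 (limma p = 0.15, exact permutation p = 0.183) was −0.23 without WT 3. Without both WT 2 and WT 3, an alternative added after the values were seen, Col1a1 was 0.093 higher in HT on the log2 scale and the median over fibrillar collagens was 0.032, with 0 collagens lower and 1 higher at an unadjusted p under 0.05, against 1.12% and 0.958% of all genes.

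Col3a1, which co-assembles with type I in soft tissue, read 2656, 2596, 1719, 3011 and 1927 in HT and 2645, 3686, 3508, 2776 and 2061 in WT. Here WT 2 exceeded WT 3, HT 3, HT 5 and WT 5 were low, and the groups overlapped, with a log2 difference of −0.30 ± 0.18 (limma p = 0.124, exact permutation p = 0.206).

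Type V chains nucleate type I fibrils. Col5a2 stood at 838, 825, 798, 893 and 774 normalised counts in HT and 869.6, 1145, 1381, 1045 and 832 in WT. The HT values were tightly grouped, WT 2, WT 3 and WT 4 lay above all of them, and WT 1 and WT 5 fell inside the HT range. The log2 difference was −0.33 ± 0.12 (limma p = 0.0149, exact permutation p = 0.0476), −0.36 without HT 4 and −0.23 without WT 3 (exact permutation p = 0.0714). With each library left out in turn the limma p stayed between 0.00313 and 0.0392, whereas the exact permutation p ran from 0.0159 to 0.0952 and exceeded 0.05 without WT 3 or any 1 HT library. The adjusted p in limma with all libraries was 1.00.

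Col5a3 read 159, 109.5, 121, 166 and 141 in HT and 161, 171, 190.5, 166 and 152 in WT. HT 2, HT 3 and HT 5 lay below every WT library, and HT 1 and HT 4 lay within the WT range. The log2 difference was −0.28 ± 0.13 (limma p = 0.0443, exact permutation p = 0.0556), and without WT 3 the exact permutation p was 0.119. With single libraries left out the limma p ran from 0.0135 to 0.122 and the exact permutation p from 0.0159 to 0.119, and both stayed under 0.05 only without HT 1 or HT 4. Col5a1, the third type V chain, spanned 857 to 1233 in HT and 786 to 1774 in WT, with a log2 difference of −0.22 ± 0.18 that was −0.072 without WT 3.

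WT 3 differed from the other libraries in its collagen make-up. It was the highest of the 10 libraries for 12 of 44 collagens, among them 6 of the 11 fibrillar, 0 of the 8 basement membrane and 6 of the 25 other chains. HT 4 was also the highest for 12, made up of 1 fibrillar, 2 basement membrane and 9 other chains. The share of all genes highest in either library was not computed. These counts, and those of markers below, therefore have no background. In WT 3 fibrillar chains made up 58.1% of the summed collagen level per kilobase, against 30.0% to 40.1% in the other libraries. Type I alone made up 44.3% of it in WT 3, against 12.3% to 22.5% in the others. The ratio of Col1a1 to Col1a2 per kilobase was 1.26 in WT 3 and between 0.618 and 0.917 elsewhere.

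Markers of other tissues moved with this library. Ibsp, a bone sialoprotein, stood at 6.49, 16.4, 10.4, 20.98 and 11.6 in HT and 9.67, 37.4, 256, 8.93 and 4.08 in WT. Sp7, an osteoblast transcription factor, stood at 17.1, 12.5, 23.1, 22.1 and 20.1 in HT and 14.6, 31.6, 105, 19.9 and 28.5 in WT. WT 3 was the highest library for both. Of the 10 cartilage and bone markers 7 had rows, and their sum was 653 in WT 3 and 136 to 245 in the others. WT 3 was the highest library for 4 of the 7, namely Ibsp, Sp7, Bglap and Acan, but not for the cartilage genes Cnmd, Ihh and Chad, of which Cnmd stood at 34.6 in WT 3 and 13.2 to 51.4 in the others. Bglap, which encodes osteocalcin, was at 0 in HT 1, HT 2 and WT 5 and at 91.2 in WT 3. The sum over the 6 skeletal muscle markers with rows was 473 in WT 3 and 159 to 302 in the others. The sum of the 14 meningeal and fibroblast markers in WT 3, 10792, lay inside the range of the other libraries (9217 to 14290), and Igf2 alone made up 6997 of it. Of these 14 markers WT 3 was the highest library for 2, Lum and Dpt, and HT 4 for 7. Lum, a proteoglycan that binds fibrils, stood at 296.5 in WT 3 and at 92.4 to 176 in the others. The part of these markers in the type I values was not tested.

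**Figure D3:**
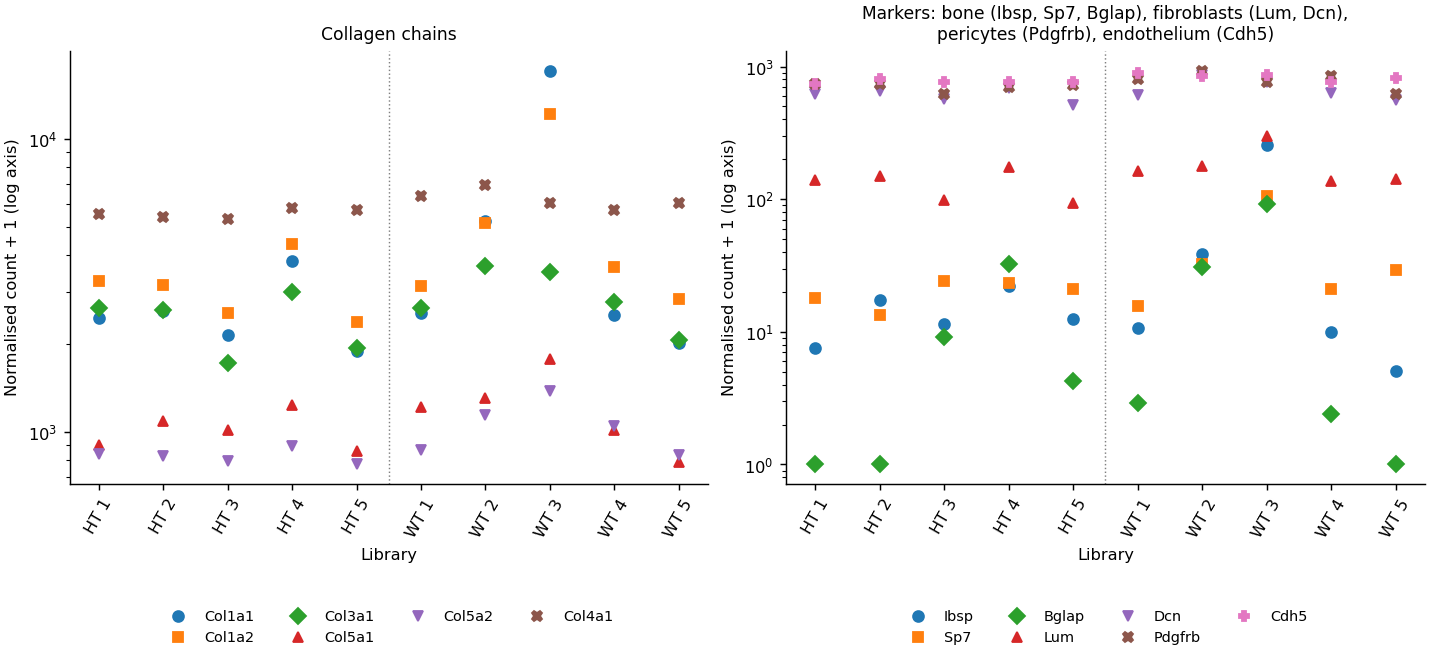
Normalised count + 1 (log axis) by library for 6 collagen chains (left) and for markers of bone, fibroblasts, pericytes and endothelium (right), 1 point per library, with a dotted line between HT and WT. Col1a1, Col1a2, Col5a1, Col5a2, Ibsp, Sp7, Bglap and Lum are highest in WT 3, whereas Col3a1, Col4a1, Dcn, Pdgfrb and Cdh5 are not.

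Among the basement membrane collagens 7 of 8 were lower in HT, with a median log2 difference of −0.11 that was −0.13 without HT 4 and −0.12 without WT 3. Col4a1 was the member with an unadjusted p under 0.05. Its normalised counts were 5522, 5429.7, 5333, 5826 and 5728 in HT 1 to HT 5 and 6367, 6930.3, 6041, 5700.1 and 6032 in WT 1 to WT 5. WT 4 lay inside the HT range, and the other 4 WT libraries lay above every HT library. The log2 difference was −0.16 ± 0.055 (limma p = 0.0145, exact permutation p = 0.0238), −0.17 without HT 4 and −0.17 without WT 3.

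Col4a2 stood at 4752, 4712, 4697, 5261 and 4982 in HT and 5163, 5131, 4948, 5016 and 5097 in WT. HT 4 was the highest library and the other 4 HT libraries overlapped WT only through HT 5, which exceeded WT 3. The log2 difference was −0.056 ± 0.045 (limma p = 0.234, exact permutation p = 0.127), and without HT 4 it was −0.084 (exact permutation p = 0.0159).

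Because type IV protomers contain 2 alpha 1 chains and 1 alpha 2 chain, the ratio of Col4a1 to Col4a2 per kilobase was compared. It was 1.13, 1.12, 1.11, 1.08 and 1.12 in HT and 1.20, 1.32, 1.19, 1.11 and 1.15 in WT. The 2 groups touched only where HT ratios exceeded that of WT 4, and the exact permutation p was 0.0317, or 0.175 adjusted over the 11 chain pairs compared.

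The chains of specialised membranes behaved less evenly. Col4a6 stood at 250.5, 242, 166, 286 and 214 in HT and 253, 325, 272, 282 and 243 in WT, with HT 3 the lowest, WT 2 the highest and overlapping groups. It differed by −0.26 ± 0.14 on the log2 scale (limma p = 0.0765, exact permutation p = 0.135), and by −0.34 without HT 4 (exact permutation p = 0.0317). The difference was −0.17 ± 0.13 for its neighbour Col4a5 (limma p = 0.214, exact permutation p = 0.302). Col4a3 and Col4a4, whose products replace the alpha 1 and alpha 2 chains in kidney and eye membranes, had log2 differences of 0.028 ± 0.32 and −0.053 ± 0.13, and of 0.23 and 0.027 without HT 4. Col4a3 was low, at 22.6 to 91.2 normalised counts.

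Col18a1 carries heparan sulphate and releases endostatin from its C-terminus. It read 925, 761, 819, 1125 and 743 in HT and 1009, 1091, 1023, 1044 and 846 in WT, where HT 4 was the highest of all and HT 5 the lowest. The log2 difference of −0.21 ± 0.11 (limma p = 0.0779, exact permutation p = 0.127) was −0.30 without HT 4 (exact permutation p = 0.0238). Col15a1, the related multiplexin, differed by −0.0074 ± 0.098.

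**Figure D4:**
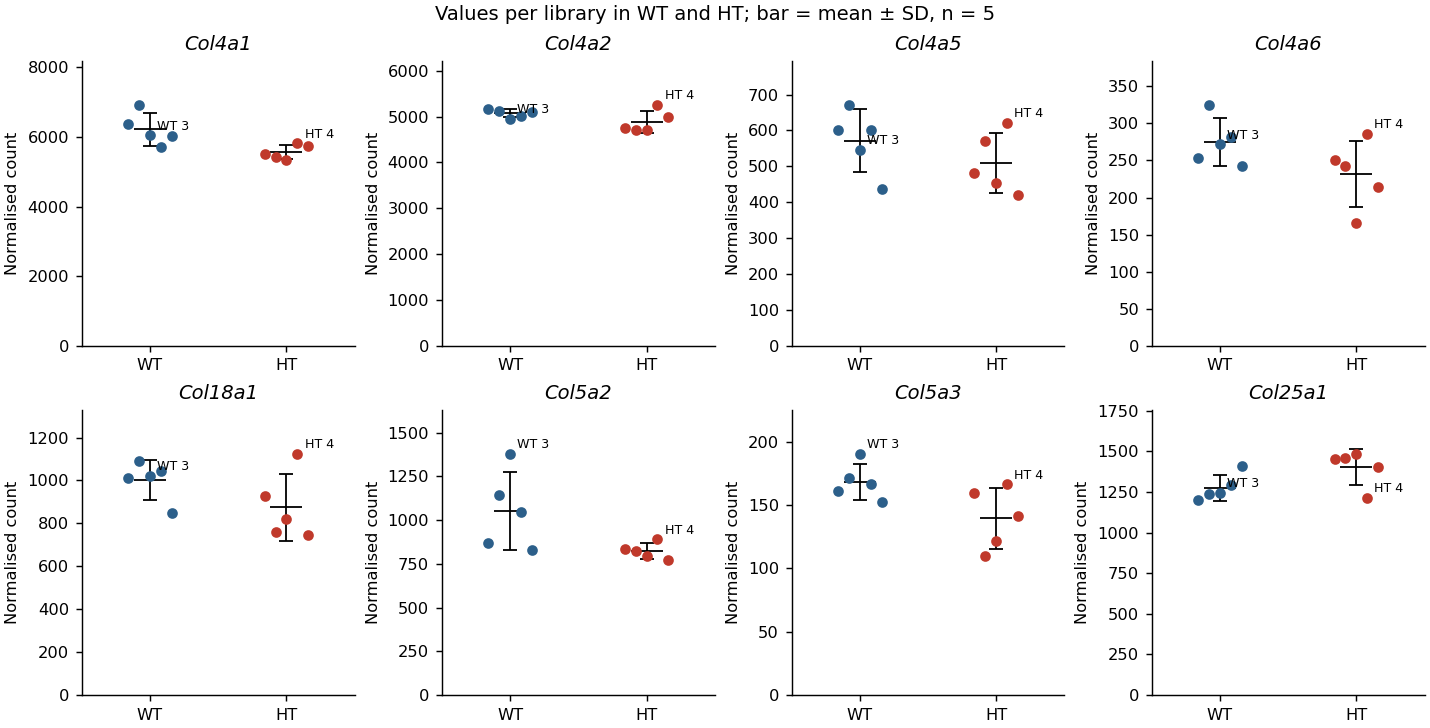
Normalised counts of 8 collagens in WT (blue) and HT (red), 1 point per library with mean ± SD (n = 5) and HT 4 and WT 3 named, on axes that start at 0. Col4a1 and Col5a2 sit lower in HT, with the groups overlapping, and the Col4a2 groups overlap through HT 4 and HT 5. For Col25a1 every HT library but HT 4 lies above every WT library but WT 5.

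Vascular and meningeal markers were set beside these chains. Of the 12 endothelial markers 9 were lower in fit (75%, against 53.6% of all genes), with a median log2 difference of −0.043 and 0 lower and 0 higher at an unadjusted p under 0.05 (limma). Cdh5, the endothelial cadherin, differed by −0.12 ± 0.057 (limma p = 0.0509, exact permutation p = 0.0317), with an exact permutation p of 0.0635 without WT 3. Flt1, 1 of the 3 higher markers, differed by 0.12 ± 0.059 (limma p = 0.0725, exact permutation p = 0.0794). Without HT 4 it differed by 0.15 (limma p = 0.0122, exact permutation p = 0.00794). In that fit 2 of the 12 were lower and 1 higher at an unadjusted p under 0.05 (limma), against 3.71% and 4.69% of all genes. The endothelial sums were 6794 to 8202 in HT and 7370 to 7898 in WT. The 8 pericyte markers had a median of −0.10 (sums 5937 to 7735 against 6186 to 7681), with 5 of 8 lower and also 0 called, and the 13 tested meningeal markers one of −0.0043 (sums 9217 to 14290 against 9394 to 12597), with 7 of 13 lower in fit and 1 lower and 1 higher at that threshold. The 5 smooth muscle markers had a median of 0.12, with 0 called. All 8 choroid plexus markers were lower in HT, 4 of them at an unadjusted p under 0.05 (limma, against 1.93% of all genes) and 1 without overlap (0.629%). Their sums, 6971 to 9926 in HT and 10520 to 14263 in WT, did not overlap. None of these 8 markers was at 0 in any library. The part of choroid plexus RNA in the collagen values was not tested.

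The 25 other collagens included 16 lower and 8 higher among the 24 tested, with a median log2 difference of −0.095 and 0 with an unadjusted p under 0.05. The lowest p in this class was that of Col6a3, a large chain of type VI filaments. It read 562, 728, 449, 639 and 398 in HT and 656, 794, 869, 638 and 538 in WT, with HT 5 and HT 3 lowest, WT 3 and WT 2 highest and an overlap between. Its log2 difference was −0.35 ± 0.17 (limma p = 0.061, exact permutation p = 0.127). Col6a1 and Col6a2 differed by −0.082 ± 0.085 and −0.12 ± 0.092, and without HT 4 by −0.14 (exact permutation p = 0.127) and −0.19 (limma p = 0.0174, exact permutation p = 0.0397). The other 3 type VI chains were higher in fit, with 0.18 ± 0.19 for Col6a4, 0.23 ± 0.36 for Col6a5 and 0.19 ± 0.14 for Col6a6. None of the 6 was called with all libraries, and their median was 0.049.

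Col25a1 is a transmembrane collagen made by neurons. Its normalised counts were 1453, 1458, 1487, 1216 and 1406 in HT and 1201, 1238, 1246, 1294 and 1409 in WT. Every HT library but HT 4 exceeded 4 of the 5 WT libraries, while WT 5 lay among them. HT exceeded WT by 0.13 ± 0.066 on the log2 scale (limma p = 0.0628, exact permutation p = 0.0952), and without HT 4 by 0.19 (exact permutation p = 0.0238). It was the 1 collagen higher at an unadjusted p under 0.05 in that fit.

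Col20a1, a fibril-associated chain, was low, with 18.2, 18.05, 19.3, 8.60 and 14.5 in HT and 35.7, 17.3, 41.5, 27.5 and 13.3 in WT. WT 1 and WT 3 were highest, HT 4 was lowest, and the difference of −0.68 ± 0.33 on the log2 scale had an exact permutation p of 0.111. Col9a3 and Col26a1, the highest of the class per kilobase, differed by −0.11 ± 0.082 and −0.049 ± 0.11. HT 4 was the highest library for both, and without it they differed by −0.18 (exact permutation p = 0.0317) and −0.15 (limma p = 0.0329, exact permutation p = 0.0556).

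Type IX and VIII chains followed. The ratio of Col9a2 to Col9a3 per kilobase was 0.688, 0.761, 0.761, 0.923 and 0.841 in HT and 0.738, 0.673, 0.663, 0.697 and 0.669 in WT. HT 4 was highest and HT 1 lay among the WT libraries, with an exact permutation p of 0.0238 that was 0.175 after adjustment over 11 pairs. Col8a2, which with Col8a1 forms the hexagonal lattice under the corneal endothelium, differed by −0.27 ± 0.14, and without HT 4 by −0.37 (exact permutation p = 0.0317). Col8a1 differed by −0.16 ± 0.11.

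Chains that assemble into 1 molecule were also compared across the 10 libraries, over 11 pairs, on the log2 scale. The correlations were above 0 for all 11, and 7 had an adjusted permutation p under 0.05 by Pearson's r and 6 by Spearman's rho. Libraries of both genotypes are pooled here, and the chains of a pair share each library and its depth. Chains of different molecules were not correlated, so these values cannot show that moving together is particular to partner chains. Col1a1 and Col1a2 had r = 0.989 (permutation p = 1e-05, the smallest the resamples can give, 1.1e-04 adjusted) and rho = 0.891 (permutation p = 0.00112, 0.0123 adjusted). Without WT 2 and WT 3, the libraries farthest from the median of Col1a1, r was 0.922 (permutation p = 0.00139).

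Col4a5 and Col4a6 had r = 0.760 (permutation p = 0.00535, 0.0133 adjusted) and rho = 0.830 (permutation p = 0.00468), and r was 0.840 without HT 5 and WT 5. For Col6a1 and Col6a3, r was 0.799 (permutation p = 0.00604, 0.0133 adjusted), rho was 0.758 (permutation p = 0.015), and r was 0.924 without HT 4 and WT 2. Col4a1 and Col4a2, which share a start region, had r = 0.718 (permutation p = 0.0176, 0.0277 adjusted) and rho = 0.758 (permutation p = 0.015). Without WT 1 and WT 2 their r was 0.776 with an adjusted permutation p of 0.0612. Only for the first 3 pairs named here was the adjusted p of r under 0.05 both with and without the farthest 2 libraries. Col4a3 and Col4a4 (r = 0.564, permutation p = 0.0923) and Col11a1 and Col11a2 (r = 0.153, permutation p = 0.674) turned to r = −0.048 and −0.069 without their farthest 2.

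**Figure D5:**
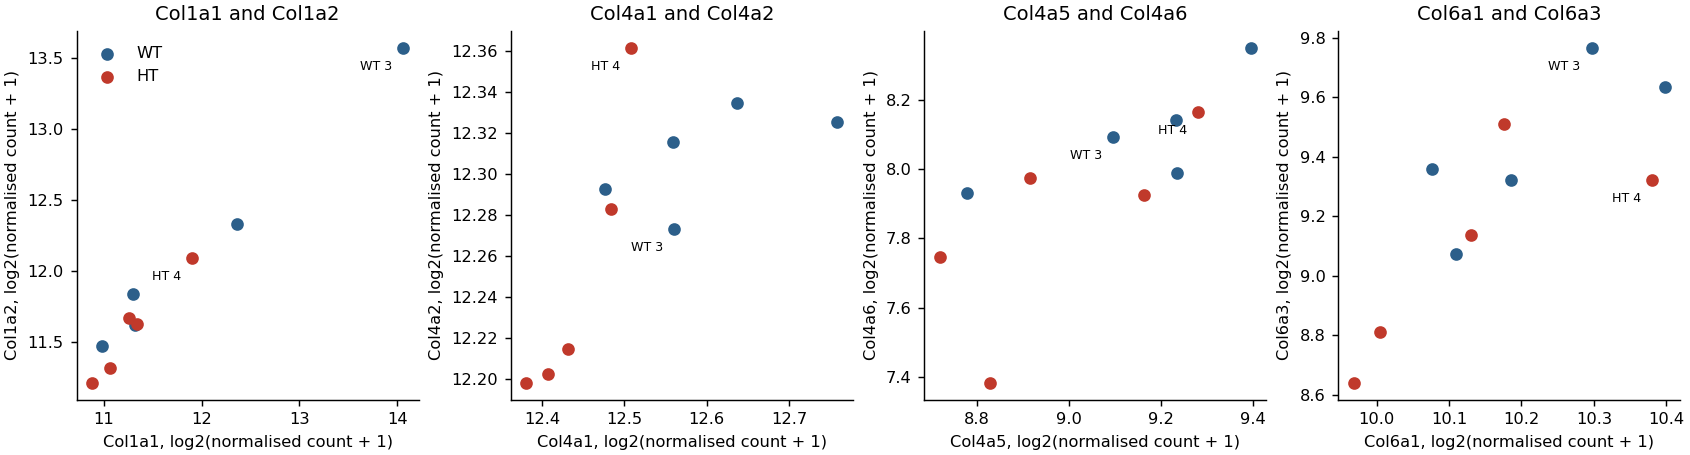
Log2(normalised count + 1) of 1 chain against its partner for 4 pairs, 1 point per library, WT in blue and HT in red, with HT 4 and WT 3 named. Col1a1 and Col1a2 run along 1 line with WT 3 at its top, and HT 4 has the highest Col4a2.

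The machinery that makes and uses collagen was read from 4 lists. Of 19 tested enzymes and chaperones that modify and fold the chains in the cell, 0 had an unadjusted p under 0.05 (limma), 12 were lower and the median log2 difference was −0.014. The smallest p values were those of P3h4, which binds the prolyl 3-hydroxylase complex (0.19 ± 0.097, limma p = 0.0712, exact permutation p = 0.0238), Fkbp10, a prolyl isomerase (−0.15 ± 0.13, limma p = 0.29, exact permutation p = 0.365), and Plod2, the telopeptide lysyl hydroxylase (−0.077 ± 0.096, limma p = 0.436, exact permutation p = 0.492). Without HT 4, 2 of the 19 were lower at an unadjusted p under 0.05 (against 3.71% of all genes), and Fkbp10 differed by −0.27 (limma p = 0.0113, exact permutation p = 0.0397). Without WT 3 the exact permutation p of P3h4 was 0.0714.

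Genes for processing and cross-linking outside the cell were mostly lower, 16 of 19 tested (84.2%, against 53.6% of all genes), with a median of −0.16 and 3 lower at an unadjusted p under 0.05 (1.93% of all genes). The count of 3 became 6 without HT 4 (3.71%) and 1 without WT 3 (1.46%). Pcolce2, an enhancer of procollagen C-proteinase, read 68.9, 37.1, 34.6, 44.3 and 42.8 in HT and 62.4, 71.7, 85.5, 72.6 and 105 in WT. HT 1 lay within the WT range and the other 4 HT libraries lay below every WT library, with a log2 difference of −0.81 ± 0.20 (limma p = 0.00156, exact permutation p = 0.0159). Mmp2, a gelatinase, differed by −0.31 ± 0.13 (limma p = 0.0288, exact permutation p = 0.0714) and Bmp1, the C-proteinase itself, by −0.13 ± 0.058 (limma p = 0.0393, exact permutation p = 0.0317). Without WT 3 the values were limma p = 0.0818 and exact permutation p = 0.143 for Mmp2, and limma p = 0.0776 and exact permutation p = 0.0476 for Bmp1. Without HT 4 the exact permutation p was 0.0397 for Mmp2 and 0.0714 for Bmp1.

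Among 11 tested collagen receptors 9 were lower, with a median of −0.065. Ddr2, a receptor kinase for fibrillar collagen, stood at 547, 505, 459.6, 403 and 413 in HT and 638, 614, 629, 669 and 452 in WT. WT 5 fell among the HT libraries and the other 4 WT libraries lay above all of them, with a log2 difference of −0.36 ± 0.12 (limma p = 0.00788, exact permutation p = 0.0317). Its exact permutation p was 0.0635 without HT 4 and 0.0635 without WT 3. Mrc2, a collagen uptake receptor, differed by −0.20 ± 0.10 and Itga2, an integrin subunit, by −0.30 ± 0.15, neither with an unadjusted p under 0.05, and without HT 4 Mrc2 had a limma p of 0.0399 and an exact permutation p of 0.127.

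The 15 other basement membrane proteins were close to the background, with 8 lower, 7 higher and a median of −0.018. Nid1, the linker between laminin and type IV collagen, read 2589, 2286, 2297, 2452 and 2037 in HT and 2702, 2558, 2843, 2832 and 2408 in WT. The ranges overlapped in HT 1 and HT 4 against WT 5, and HT 1 also exceeded WT 2. Nid1 differed by −0.20 ± 0.07 on the log2 scale (limma p = 0.0147, exact permutation p = 0.0397), and −0.17 without WT 3 (limma p = 0.0406, exact permutation p = 0.0794). The laminin chains Lamb1 and Lamc3 differed by −0.15 ± 0.076 and −0.26 ± 0.14 (exact permutation p = 0.103 and 0.119), and without HT 4 Lamc3 had a limma p of 0.0383 and an exact permutation p of 0.0873. Lama3 was higher in HT, by 0.14 ± 0.12, and without HT 4 by 0.24 (limma p = 0.0153, exact permutation p = 0.00794). In that fit 2 of the 15 were lower and 1 higher at an unadjusted p under 0.05 (limma), against 3.71% and 4.69% of all genes. No gene of these 4 lists had an adjusted limma p under 0.05, with a smallest value of 1.00 over all libraries.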

How the data were processed

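RNA was extracted from whole brains of 10 mice, and poly-A libraries were made with a stranded kit and sequenced in pairs. The authors quantified reads with Salmon 1.1.0, with GC bias correction, on GRCm38, summed transcripts to genes with tximport and divided by DESeq2 1.30.1 size factors. The deposited values are therefore normalised counts, a signal that is not whole reads, so no count model was fitted and no interval for counting error is given. The value of 1 read put depth at about 25.0 to 31.2 M reads (M, 1e+06) per library.

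Genes with a mean of at least 10 were kept (17020), values were taken as log2(value + 1), and HT was compared with WT by limma 3.58.1 (R 4.3.3, intensity trend, robust variances, Benjamini-Hochberg adjustment over all genes, threshold 0.05). Fold changes on this scale understate changes of low genes. Exact permutation tests, two-sided, used all 252 assignments of 5 against 5, and permutation tests of correlations used 1e+05 resamples. Symbols, positions and lengths came from GENCODE M21, promoters from RefSeq on GRCm38.p6. Chain ratios were computed per kilobase within a library. The fit was tested on simulated data.

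The members and lists were chosen with earlier results of these data known. Genes are named by rule: in each class the 3 highest per kilobase and the 3 smallest p, any member with an unadjusted p under 0.05 or without overlap, both members of each partner pair, and the 3 smallest p of each partner list. Others named were chosen after their values were seen. The labels do not say that the shared replicate numbers of HT and WT pair the mice. No same-numbered pair correlated above 0.1, so the block was an alternative only. However, HT 1, HT 2, HT 3 and HT 5 each correlated best with their own WT number (0.0911, 0.0843, 0.0815 and 0.0926). Whether the mice are paired is not settled. Alternatives are given at the end.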

Additional observations from a re-analysis of the deposited data

Results flagged for a closer look

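Within each genotype, 46 quantities were checked for a library far from the other 4. They were the 43 tested collagens and the sums of fibrillar collagens, of basement membrane collagens and of cartilage and bone markers. The measure was the gap to the nearest neighbour as a share of the whole range, with a limit of 0.71. Of 92 groups, 11 passed it. For independent values with a normal distribution about 1 in 20, or 4.6, would pass. The quantities here are not independent, since the fibrillar sum contains Col1a1 and Col1a2, which moved together (r = 0.989). The 11 therefore cannot be read as an excess over 4.6.

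WT 3 accounted for 5 of the 11. It was highest for Col1a1 (share 0.785, 17074 normalised counts against 5249 in the next library), Col1a2 (0.751, 12174 against 5159) and Col12a1, a chain associated with type I fibrils (0.782, 1389 against 879). It was also highest for the fibrillar sum (0.725, 39644 against 19691) and the cartilage and bone sum (0.79, 653 against 245).

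HT 4 accounted for 3. It was highest for Col9a2 (0.851, 1198 against 808) and Col26a1 (0.736, 1288 against 944), and lowest for Col19a1 (0.728, 102 against 247). Without HT 4 the log2 difference of Col19a1 was 0.27 instead of −0.016.

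In the remaining 3 groups WT 5 was highest for Col15a1 (0.789, 1082 against 808), WT 4 lowest for Col6a5 (0.871, 63.0 against 162), and HT 3 highest for Col17a1 (0.836, 36.9 against 11.4).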

How the results depend on the processing

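No collagen had an adjusted limma p under 0.05 under any of the alternatives run, with a smallest value of 0.366, and 28 of 43 log2 differences kept their sign throughout. Leaving out single libraries, 2 to 11 collagens were lower and 0 to 2 higher at an unadjusted p under 0.05. Those at an exact permutation p under 0.05 ranged from 1 to 10, and those without overlap from 0 to 1. Genes with an adjusted p under 0.05 over the whole table ranged from 0 to 2. The shares over all genes moved too. Lower genes were 3.71% without HT 4, 1.46% without WT 3 and 2.54% without WT 5. Higher genes were 4.69%, 1.16% and 1.59% in these fits. Without HT 4, 7.88% passed the permutation test and 2.96% did not overlap, against 3.9% and 0.629% with all libraries. The remaining shares were not computed, so the ranges have no full background. The medians ranged from −0.16 to −0.064 over all collagens, −0.32 to −0.072 fibrillar, −0.13 to −0.082 basement membrane and −0.16 to −0.050 other. With sample weights 13 were lower and 1 higher, against 4.3% and 3.22% of all genes (2 genes adjusted). With quantile normalisation 1 was higher (1.81% of all genes), as with the replicate block (1.29%). The same held with the length and GC trend removed, without the block (2.16%) and with it (2.04%). With the trend removed 1 gene passed adjustment, and without the block 1 collagen passed the permutation test (4.95% of all genes). Of these fits, the count of lower collagens is given only for the replicate block, below. Without HT 4 and with the trend removed 12 were lower (3.98% of all genes), 1 higher (3.81%), 10 passed the permutation test (7.27%), 3 did not overlap (2.63%) and 2 genes passed adjustment. Without both HT 4 and WT 3, added after seeing the data, 9 were lower, 2 higher, 2 did not overlap and 2 genes passed. Without both WT 2 and WT 3, also added, 0 were lower, 1 was higher, 0 passed the permutation test and the fibrillar median was 0.032. Each replicate number holds 1 HT and 1 WT library, so the replicate block cannot change a log2 difference, and its unchanged medians show nothing about stability. It can change p values, and gave 4 lower (1.99% of all genes). The same-numbered mice correlated at −0.10 to 0.093 in their deviations, and 4 of 5 HT libraries matched their own number best.

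Signs that turned had these values. With sample weights: Col19a1 0.19, Col9a2 −0.016, Col27a1 −0.016, Col4a4 0.0015. With quantile normalisation: Col15a1 0.0049. Without HT 4 and with the trend removed: Col11a2 −0.017, Col19a1 0.26, Col9a2 −0.021, Col27a1 −0.020. Without HT 4 and WT 3: Col19a1 0.37, Col9a2 −0.029, Col4a4 0.064. Without WT 2 and WT 3: Col6a1 0.0076, Col1a1 0.093, Col14a1 0.031, Col19a1 0.11, Col5a1 0.026, Col12a1 0.085. Leaving out single libraries gave ranges across 0 for Col11a2 (−0.00092 to 0.19), Col12a1 (−0.18 to 0.044), Col13a1 (−0.20 to 0.068), Col14a1 (−0.29 to 0.014), Col15a1 (−0.050 to 0.089), Col19a1 (−0.12 to 0.27), Col26a1 (−0.16 to 0.0071), Col27a1 (−0.021 to 0.093), Col4a3 (−0.26 to 0.23), Col4a4 (−0.10 to 0.027), Col6a5 (−0.049 to 0.49) and Col9a2 (−0.032 to 0.14). Without the 2 farthest libraries, r was 0.776 for Col4a1 and Col4a2, 0.586 for Col5a1 and Col5a2, 0.755 for Col6a1 and Col6a2 and 0.520 for Col9a2 and Col9a3, none with an adjusted permutation p under 0.05, and −0.048 and −0.069 for Col4a3 with Col4a4 and Col11a1 with Col11a2. The cause of these changes was not tested. Whole-brain RNA does not separate the cell types that make each chain, and 5 mice per group limit what a difference under the library spread can show.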
